A study of Homo sapiens with 3 samples.

Results

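The genes described here encode the parts of the junctions that hold epithelial cells together: tight junctions with their polarity proteins, adherens junctions, desmosomes and gap junctions. A list of 46 such genes was followed in Caco-2 cells, a widely used human colon carcinoma line whose confluent layers take on features of enterocytes. The probe sets used were those whose single gene symbol is on the list, which gave 123 probe sets for 43 of the 46 genes, out of 44988 probe sets and 18132 genes with a single symbol. CTNND1 was read only by probe sets that carry several symbols, and MAGI1 and F11R had no probe set with a single symbol, so these 3 are not analysed here. Of the 43 genes, 39 had a mean level at or above the median of all probe sets (intensity 184) and entered the comparisons, with 88 probe sets above that filter.

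The 3 arrays held total RNA from 2 knockdown lines that express different short hairpin RNAs against OCC-1 (shOCC-1-1, here line 1, and shOCC-1-2, here line 2) and from a control line with a non-target hairpin (shCTRL). All 3 lines carried a lentiviral hairpin, grew in medium with 20% serum, were kept under puromycin (1 µg/ml) for 5 days and were harvested after 24 hours without the drug. The series asks which genes differ from control with both hairpins. Each line is 1 culture on 1 array, so the control has no spread of its own and the number of arrays limits the precision. Pearson's r over all probe sets was 0.998 between lines 1 and 2, 0.992 between line 1 and control, and 0.993 between line 2 and control. OCC-1 (symbol C12orf75) was at 42.5% of control in line 1 and 32.5% in line 2.

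Tight junctions seal the space between neighbouring cells. Claudins and occludin form their strands, and scaffold proteins such as ZO-1 tie the strands to actin. The PAR and Crumbs complexes place these junctions at the border between the apical and lateral membrane. Adherens junctions couple cells through E-cadherin, catenins and nectins, and desmosomes anchor keratin filaments through desmosomal cadherins, plakophilins and desmoplakin. In the gut this set of contacts keeps the barrier closed, and Caco-2 layers are a common model of it.

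Promoter windows are shown for 4 genes whose levels passed the test described below, because they are the windows in the RefSeq table (build GRCh38.p14) among the called genes that hold either of 2 motifs. Each runs from 250 bases before to 50 bases after the annotated start and is written 5′ to 3′ along the gene's strand. Capitals mark the E-box CAGGTG, which repressors of the Snail and ZEB families can bind, and the GC box GGGCGG, which Sp1 can bind, on either strand. Neighbouring motifs may share bases. The windows lie at chr3:190322397-190322696 (CLDN1, minus strand), chr1:61742230-61742529 (PATJ, plus strand), chr6:7541421-7541720 (DSP, plus strand) and chr6:138107370-138107669 (PERP, minus strand).
CLDN1: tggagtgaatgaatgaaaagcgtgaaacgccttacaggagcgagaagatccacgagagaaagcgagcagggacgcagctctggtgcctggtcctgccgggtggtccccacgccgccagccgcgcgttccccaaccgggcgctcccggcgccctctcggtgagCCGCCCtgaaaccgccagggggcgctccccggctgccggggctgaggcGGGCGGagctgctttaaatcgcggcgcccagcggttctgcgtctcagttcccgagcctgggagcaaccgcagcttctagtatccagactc
PATJ: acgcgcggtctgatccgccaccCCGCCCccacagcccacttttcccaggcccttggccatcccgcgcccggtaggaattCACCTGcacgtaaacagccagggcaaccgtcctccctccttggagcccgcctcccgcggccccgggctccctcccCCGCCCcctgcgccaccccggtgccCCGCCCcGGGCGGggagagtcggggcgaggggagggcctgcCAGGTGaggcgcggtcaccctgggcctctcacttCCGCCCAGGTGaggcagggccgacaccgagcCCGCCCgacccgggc
DSP: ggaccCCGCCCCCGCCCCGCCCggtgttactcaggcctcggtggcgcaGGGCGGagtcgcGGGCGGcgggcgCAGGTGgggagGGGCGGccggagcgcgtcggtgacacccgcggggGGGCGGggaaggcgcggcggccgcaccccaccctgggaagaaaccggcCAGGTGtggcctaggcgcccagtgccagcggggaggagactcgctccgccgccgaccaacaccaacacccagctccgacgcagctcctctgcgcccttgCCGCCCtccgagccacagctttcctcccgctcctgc
PERP: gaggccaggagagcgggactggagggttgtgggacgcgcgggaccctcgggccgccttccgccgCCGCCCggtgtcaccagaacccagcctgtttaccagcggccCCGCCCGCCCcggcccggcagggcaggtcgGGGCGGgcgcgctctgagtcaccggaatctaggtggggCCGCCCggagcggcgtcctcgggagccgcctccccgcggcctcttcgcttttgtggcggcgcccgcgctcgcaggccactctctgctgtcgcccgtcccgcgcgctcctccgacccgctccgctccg
The CLDN1 window held 0 E-boxes and 2 GC boxes, that of PATJ 3 and 6, that of DSP 2 and 8, and that of PERP 0 and 5. Over the listed genes 44 windows of 31 genes were in the table, and 34.1% of them held an E-box and 75% a GC box. Among all 35116 windows these shares were 20.6% and 45.0%. The median share of G and C bases was 68.2% in the windows of the listed genes and 58.7% in all windows. A match describes the letters of a window and is not a measured binding site.

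The junction genes did not move as a block. The size rule asked that both lines lie on the same side of control by 1.5-fold or more. By it 1 of 39 genes was higher and 0 were lower, where 1.36% of all 11329 genes above the filter were higher and 0.159% lower. In limma, fitted over all 11329 genes with both lines as 1 group, 6 of 39 rose (15.4%) and 2 fell (5.1%, PKP2 among them, whose probe sets disagree) at an adjusted p under 0.05. Over all genes limma called 9.63% higher and 3.06% lower. At an unadjusted p under 0.05, 7 of the 39 genes were higher and 7 lower, beside 17.9% higher and 12.9% lower of all genes. Taken alone, line 1 had 1 of 39 genes higher by that size (1.93% of all genes) and 0 lower (0.212%), and line 2 had 2 higher (1.87%) and 0 lower (0.406%), the second being CLDN1. The median log2 difference of the 39 genes was -0.022 in line 1 and -0.031 in line 2, beside -0.026 and -0.019 over all genes. Both lines are set against the same control array, and limma assumes that this lone control varies like the knockdown lines. In total RNA, a smaller share of cells with a transcript and less of it in each cell cannot be told apart.

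**Figure D1:**
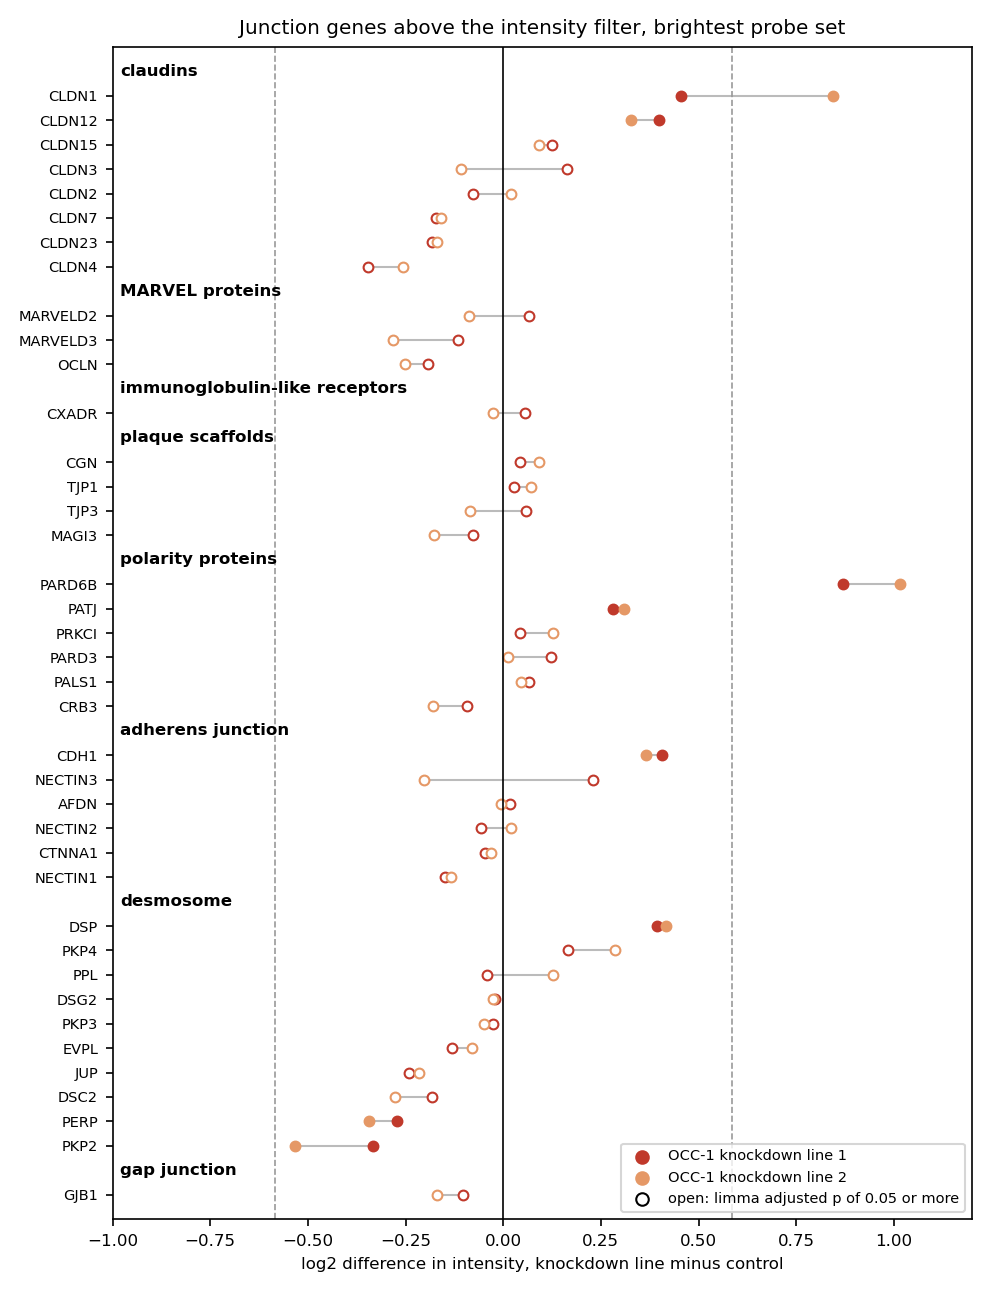
Log2 difference in intensity from control (x axis) of the 39 junction genes above the filter, by role, for knockdown lines 1 and 2 (1 array each, brightest probe set of each gene). Filled points passed limma at an adjusted p under 0.05 and dashed lines mark 1.5-fold. PARD6B is the only gene with both points past a dashed line.

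The largest difference was in a polarity gene. PARD6B encodes PAR-6 beta, the adaptor that holds atypical protein kinase C and Cdc42 in the PAR complex. It had an intensity of 1673 in line 1 and 1851 in line 2, against 916 in the control. Both lines were far above control and close to each other, and PARD6B rose 1.83-fold in line 1 and 2.02-fold in line 2 (log2 difference 0.94 ± 0.09 SE, limma adjusted p = 0.0045). Its second probe set above the filter was dimmer and moved much less, with 380 in line 1 and 365 in line 2, against 340 in the control. The mean of both PARD6B probe sets still rose in limma (0.54, adjusted p = 0.0080), but at that setting it was no longer 1.5-fold higher in both lines.

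PATJ, a multi-PDZ scaffold of the Crumbs complex, also rose, with 329 in line 1 and 336 in line 2, against 271 in the control (0.29 ± 0.07 SE, limma adjusted p = 0.046). Of its 3 probe sets above the filter only the brightest was higher in both lines, and the other 2 lay between -0.16 and 0.00 in log2 difference. Below the filter, PATJ probe sets at 0.19 and 0.22, 0.15 and 0.13, and 0.09 and 0.07 were also higher in both lines. Another was at -0.01 and 0.00. PALS1, which binds PATJ and the Crumbs tail, had 855 in line 1 and 843 in line 2, against 817 in the control, by its brightest probe set. A dimmer PALS1 probe set read 763 in line 1 and 751 in line 2, against 461 in the control, and this was 1.65-fold and 1.63-fold higher. The 3 remaining PALS1 probe sets lay between -0.02 and 0.12. The atypical kinase PRKCI (0.04 and 0.13), the PAR-3 gene PARD3 (0.12 and 0.01) and the Crumbs gene CRB3 (-0.09 and -0.18) did not pass the test. A dimmer PRKCI probe set was at 0.16 and 0.30 and did not pass as its own feature (limma adjusted p = 0.11). Of the 6 polarity genes, 2 thus rose and 0 fell (all genes: 9.63% and 3.06%), and 4 passed in neither direction. At an unadjusted p under 0.05 the limma counts were also 2 higher and 0 lower of 6 (all genes: 17.9% and 12.9%).

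Among the claudins 2 rose. CLDN1, a barrier-forming claudin, had 1863 in line 1 and 2437 in line 2, against 1359 in the control. Both lines were above control, line 2 further than line 1. CLDN1 rose 1.37-fold in line 1 and 1.79-fold in line 2 (0.65 ± 0.15 SE, limma adjusted p = 0.033). A second CLDN1 probe set read 985 in line 1 and 1241 in line 2, against 771 in the control, so it showed the same order. Of the 2 dimmer CLDN1 probe sets, one was below control in both lines (log2 differences -0.26 and -0.19), and the other kept the order with smaller differences (0.07 and 0.16). With the mean of all 4 probe sets CLDN1 no longer passed (0.26, limma adjusted p = 0.12).

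CLDN12, a claudin that lacks the C-terminal PDZ-binding motif common in the family, rose with 507 in line 1 and 483 in line 2, against 385 in the control (0.36 ± 0.08 SE, limma adjusted p = 0.027). Its dimmer probe set, close to the filter, was at -0.03 in line 1 and 0.12 in line 2, and with the mean of both CLDN12 no longer passed (0.21, limma adjusted p = 0.079). CLDN4, a claudin tied to chloride handling in kidney and gut epithelia, had 891 in line 1 and 948 in line 2, against 1132 in the control. That was 0.79 and 0.84 of control and just missed the threshold (-0.30 ± 0.08 SE, limma adjusted p = 0.052). All 3 CLDN4 probe sets above the filter were lower in both lines, and 2 of them fell when every probe set was tested as its own feature (limma adjusted p = 0.040 and 0.029).

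The other claudins stayed close to control by their brightest probe sets. CLDN7 (-0.17 and -0.16) and CLDN23 (-0.18 and -0.17) lay below control in both lines by nearly equal amounts, and CLDN15 (0.13 and 0.09) lay above it, without passing the test. CLDN2, the cation pore claudin of leaky epithelia, was at -0.08 in line 1 and 0.02 in line 2. A dimmer CLDN2 probe set above the filter was at -0.28 and -0.19 and did not pass as its own feature (limma adjusted p = 0.083). CLDN3 was at 0.16 and -0.11. In limma 2 of 8 claudins rose and 0 fell (all genes: 9.63% and 3.06%). At an unadjusted p under 0.05 these counts were 2 and 2 (all genes: 17.9% and 12.9%).

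Tight junction genes other than the claudins and the polarity genes did not pass the test. Occludin (OCLN), the first strand protein described, had 811 in line 1 and 779 in line 2, against 927 in the control (-0.22 ± 0.08 SE, limma adjusted p = 0.10). Both OCLN probe sets were below control in both lines. MARVELD3, a relative of occludin, had 787 in line 1 and 702 in line 2, against 853 in the control, but its other 2 probe sets lay between -0.03 and 0.11. Tricellulin (MARVELD2), which seals the corners where 3 cells meet, was at 0.07 and -0.09.

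The scaffolds lay near control. TJP1, which encodes ZO-1, had 2023 in line 1 and 2087 in line 2, against 1986 in the control. Cingulin (CGN), which links the plaque to myosin and microtubules, had 1251 in line 1 and 1294 in line 2, against 1215 in the control, and the scaffold MAGI3 had 364 and 340, against 385. TJP3 (ZO-3) was at 0.06 and -0.08. CXADR, the coxsackievirus and adenovirus receptor, had 3227 in line 1 and 3045 in line 2, against 3103 in the control. Over the MARVEL proteins, CXADR and the scaffolds, limma called 0 of 8 genes at an adjusted p under 0.05 (all genes: 9.63% higher and 3.06% lower). At an unadjusted p under 0.05, 0 were higher and 1 (OCLN) was lower (all genes: 17.9% and 12.9%).

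At the adherens junction the gene for E-cadherin, CDH1, had 5033 in line 1 and 4891 in line 2, against 3799 in the control, so both lines were above control and nearly equal. CDH1 rose 1.33-fold in line 1 and 1.29-fold in line 2 (0.39 ± 0.07 SE, limma adjusted p = 0.021). Only this probe set of CDH1 passed the filter. The second CDH1 probe set was just below the filter and read 179 in line 1 and 176 in line 2, against 187 in the control. With the mean of both CDH1 no longer passed (0.16, limma adjusted p = 0.14).

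Alpha-catenin (CTNNA1), which couples the cadherin complex to actin, was read by 6 probe sets above the filter. The brightest was at -0.05 in line 1 and -0.03 in line 2, and the other 5 were all higher in both lines. One of these read 2349 in line 1 and 2343 in line 2, against 1694 in the control, and rose when each probe set was tested on its own (0.47 ± 0.08 SE, limma adjusted p = 0.0060). Afadin (AFDN), the partner of the nectins, showed the same kind of split, with its brightest probe set at 0.02 and -0.01 and the next at 0.34 and 0.31. NECTIN1 had 1147 in line 1 and 1159 in line 2, against 1272 in the control, and its 3 probe sets above the filter were all lower in both lines without passing the test. NECTIN2 was at -0.06 and 0.02 by its brightest probe set. The other NECTIN2 probe set was at -0.20 and -0.18 and did not pass as its own feature (limma adjusted p = 0.13). Of 6 adherens junction genes, 1 rose and 0 fell in limma (all genes: 9.63% and 3.06%). At an unadjusted p under 0.05 the counts were also 1 higher and 0 lower (all genes: 17.9% and 12.9%).

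**Figure D2:**
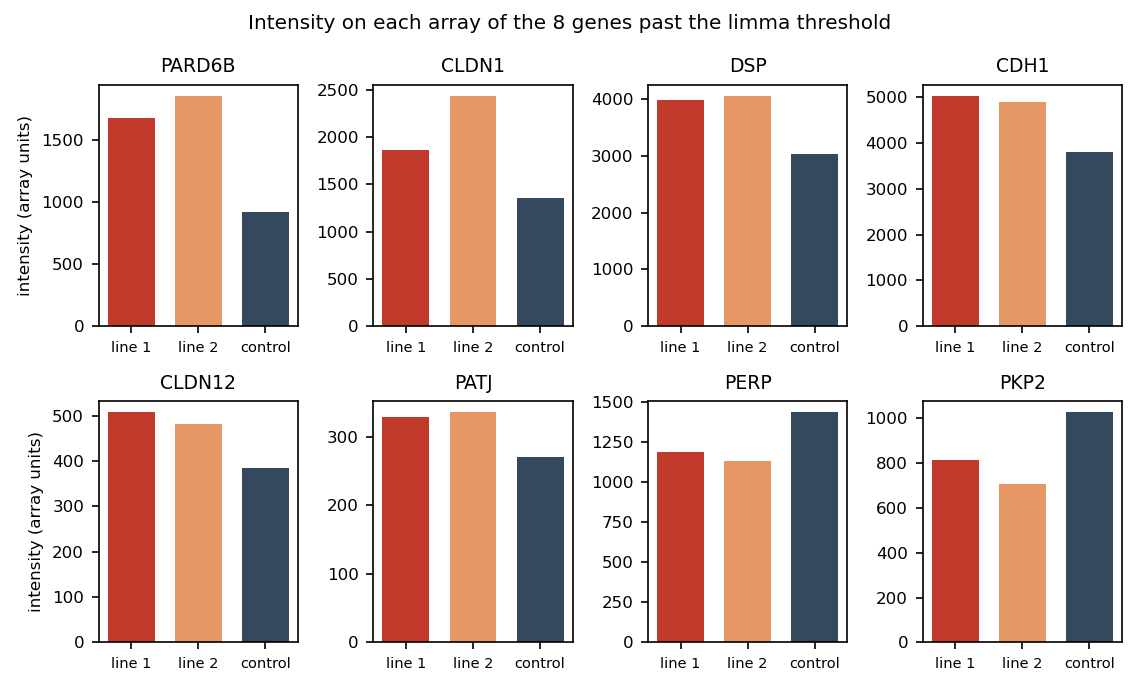
Intensity in array units (y axis, from 0) on each of the 3 arrays for the 8 junction genes with a limma adjusted p under 0.05, brightest probe set, 1 bar per array. In PARD6B, CLDN1, DSP, CDH1, CLDN12 and PATJ both knockdown lines are above the control, and in PERP and PKP2 both are below it.

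Among the desmosomal genes DSP rose and PERP fell by their brightest probe sets. DSP encodes desmoplakin, which ties the plaque to keratin filaments. It had 3994 in line 1 and 4061 in line 2, against 3042 in the control, and rose 1.31-fold and 1.33-fold (0.40 ± 0.07 SE, limma adjusted p = 0.017). Its other probe set went the other way, with 1939 in line 1 and 1802 in line 2, against 2114 in the control. With the mean of both probe sets DSP no longer passed (0.11, limma adjusted p = 0.26).

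PERP, a membrane protein of desmosomes and a p53 target, had 1187 in line 1 and 1129 in line 2, against 1434 in the control. It fell to 0.83 and 0.79 of control (-0.31 ± 0.08 SE, limma adjusted p = 0.045). All 3 PERP probe sets were below control in both lines, the dimmest at -0.21 in each. The base composition of probes moved with the arrays in the same direction. Of 23 background control probe sets, the 16 with the most G and C bases were lower in both lines, by up to -0.37 in line 1 and -0.23 in line 2, and the 7 with the fewest were higher. The sequences of the junction probes were not used here, so the part of base composition in PERP, CLDN4 or any other gene was not tested.

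PKP2, a plakophilin of the desmosomal plaque, was contradictory. Its brighter probe set had 812 in line 1 and 707 in line 2, against 1024 in the control, and fell (-0.43 ± 0.10 SE, limma adjusted p = 0.034). Its other probe set had 742 in line 1 and 613 in line 2, against 451 in the control. Tested as its own feature, that probe set rose (0.58 ± 0.11 SE, limma adjusted p = 0.012). With the mean of both, PKP2 was at 0.07 (limma adjusted p = 0.64), so no direction can be given for the gene. On both probe sets line 2 was lower than line 1.

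PKP4, a relative of the plakophilins found at desmosomes and adherens junctions, was above control on all 3 of its probe sets that passed the filter. The brightest had 1140 in line 1 and 1238 in line 2, against 1016 in the control (limma adjusted p = 0.12). The next had 700 in line 1 and 714 in line 2, against 462 in the control, which was 1.51-fold and 1.55-fold higher. The mean of its probe sets rose (0.34, limma adjusted p = 0.026). Plakoglobin (JUP), shared by desmosomes and adherens junctions, had 2645 in line 1 and 2693 in line 2, against 3125 in the control (-0.23 ± 0.07 SE, limma adjusted p = 0.090). The desmosomal cadherin DSC2 was at -0.18 and -0.28 by its brightest probe set, while the other 2 above the filter were higher than control in both lines and, of 3 below the filter, 2 were lower in both lines. DSG2 (-0.02 and -0.03), PKP3 (-0.03 and -0.05), periplakin (PPL, -0.04 and 0.13) and envoplakin (EVPL, -0.13 and -0.08) lay close to control. By the brightest probe set 1 of 10 desmosomal genes rose and 2 fell in limma (all genes: 9.63% and 3.06%). Of these 2, 1 is PKP2, for which the probe sets disagree. At an unadjusted p under 0.05 the counts were 2 higher and 4 lower of 10 (all genes: 17.9% and 12.9%).

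The connexin GJB1, a gap junction channel protein, had 1489 in line 1 and 1423 in line 2, against 1600 in the control (limma adjusted p = 0.27). Below the filter were 4 of the listed genes. CGNL1 had 176 in line 1 and 170 in line 2, against 180 in the control, and JAM3 had 185 and 187, against 174. JAM2 had 115 and 106, against 113, and GJB2 had 99.5 and 95.5, against 107. These 4 genes were not tested.

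**Figure D3:**
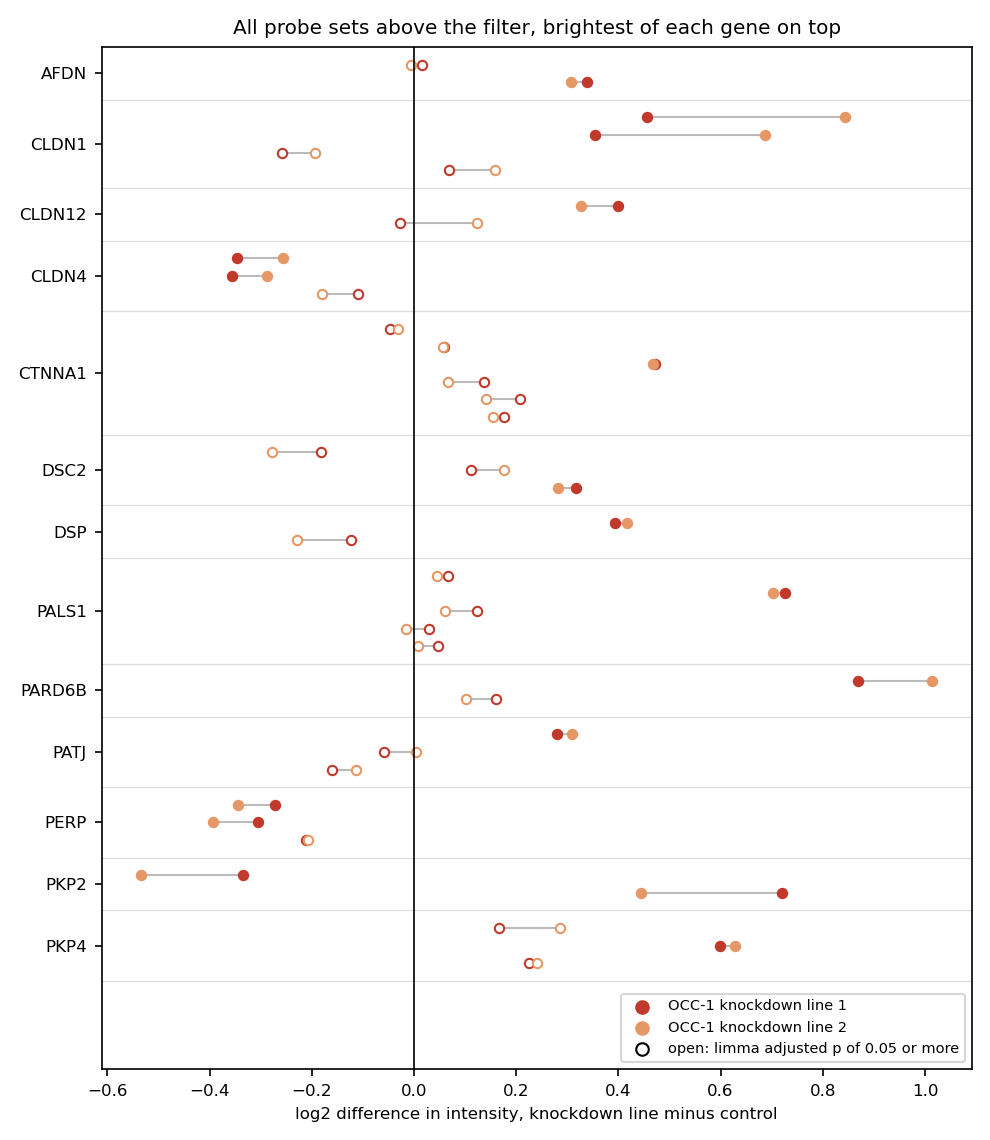
Log2 difference in intensity from control (x axis) on every probe set above the filter, for the 13 junction genes with at least 2 such probe sets and at least 1 past limma, each probe set tested as its own feature. Points are knockdown lines 1 and 2, filled where the adjusted p was under 0.05. For PKP2 filled points lie on both sides of 0, and all points of PERP and CLDN4 are below 0.

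How far a gene moved depended on the probe set that read it. Of 39 genes 27 had several probe sets above the filter. For 12 of these at least 1 probe set was higher and at least 1 lower in both lines. That count takes differences of any size, such as those of TJP1 (0.03 and 0.07 on its brightest probe set, -0.01 and -0.05 on the other). The same share over all genes was not computed, so the count is not shown to be particular to the junction genes. With every probe set as its own feature, 13 of 88 rose (14.8%) and 5 fell (5.7%) in limma, beside 11.3% and 3.92% of all 22670 probe sets. By size 3 of the 88 were higher, beside 1.41% of all probe sets, and 0 were lower, beside 0.11%. The 3 belonged to PARD6B, PALS1 and PKP4. In this fit 6 genes (AFDN, CLDN4, CTNNA1, DSC2, PALS1 and PKP4) had a called probe set although their brightest had not passed in the fit over genes. For CLDN4 the brightest itself passed here.

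The 2 knockdown lines can be compared without the control. Between line 2 and line 1, 3 of the 39 genes differed by at least 1.2-fold, beside 2.65% of all genes. CLDN1 was 1.31-fold higher in line 2 than in line 1, and 1.26-fold on its second probe set. Its 2 dimmer probe sets above the filter were 1.05-fold and 1.06-fold higher in line 2. NECTIN3, a nectin that pairs with NECTIN1, was 1.35-fold higher in line 1 than in line 2. It had 1071 in line 1 and 793 in line 2, against 913 in the control, so the lines lay on opposite sides of it. The second NECTIN3 probe set gave 620 in line 1 and 490 in line 2, against 505 in the control. CLDN3, with 318 in line 1 and 264 in line 2, against 284 in the control, was 1.21-fold higher in line 1. The SD of the log2 difference between the lines over all genes was 0.11. With 1 array per line these differences have no test.

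A second list held 52 other genes of the same junctions, of which 25 were above the filter. In limma 2 of the 25 rose and 0 fell (all genes: 9.63% and 3.06%), and at an unadjusted p under 0.05 these counts were 2 and 3 (all genes: 17.9% and 12.9%). Beta-catenin (CTNNB1), which binds the E-cadherin tail, had 2637 in line 1 and 2350 in line 2, against 1824 in the control (0.45 ± 0.09 SE, limma adjusted p = 0.024). Vinculin (VCL), recruited to alpha-catenin under tension, had 2207 in line 1 and 2324 in line 2, against 1757 in the control (0.37 ± 0.08 SE, limma adjusted p = 0.027). By size 0 of the 25 were called. These counts and the values of CTNNB1 and VCL are for the brightest probe sets. With each of the 52 probe sets of these genes above the filter as its own feature, 3 rose and 3 fell in limma (all probe sets: 11.3% and 3.92%). As a group the 25 genes had median log2 differences of -0.10 (line 1) and -0.03 (line 2).

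The arrays carried the markers of the labelled cells. All 10 epithelial markers were above the filter, KRT20 only just (185 in line 1, 186 in line 2 and 182 in the control). The filter is the median of all probe sets and not a level of detection. The background control probe set with 17 G and C bases read 183 in line 1, 186 in line 2 and 206 in the control. That with 25 read 1780, 2049 and 2307. The summed intensity of the 10 markers was 37198 in line 1, 37569 in line 2 and 35193 in the control. Of these EPCAM, an adhesion molecule that binds claudins, rose 1.43-fold in line 1 and 1.504-fold in line 2 (limma adjusted p = 0.0090), and the epithelial factor ELF3 fell to 0.80 and 0.81 of control (limma adjusted p = 0.035). Of 9 mesenchymal markers 5 passed the filter, with sums over all 9 of 11476 in line 1, 11779 in line 2 and 10203 in the control. Fibronectin (FN1) made most of that sum, and TWIST1, SNAI2, ZEB2 and CDH2 were below the filter. Fibroblast sums were 2534 in line 1, 2371 in line 2 and 2368 in the control, endothelial sums 1065, 1119 and 1158, and leukocyte sums 2335, 2406 and 2662. LCP1 made most of the leukocyte sum (1592, 1722 and 1909). PDGFRA was the largest part of the fibroblast sum (1209, 1023 and 1016). In limma 0 of the 14 markers of these 4 other types above the filter passed (all genes: 9.63% higher and 3.06% lower). At an unadjusted p under 0.05, 1 mesenchymal marker was higher and 1 leukocyte marker lower (all genes: 17.9% and 12.9%). With each probe set as its own feature, 2 of 15 mesenchymal probe sets rose and 1 of 3 leukocyte probe sets fell (all probe sets: 11.3% and 3.92%). Of the 8 fibroblast and 3 endothelial probe sets 0 were called, and of 27 epithelial ones 6 rose and 2 fell.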

How the data were processed

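Total RNA of 2 OCC-1 knockdown lines and 1 control line was labelled with biotin as cRNA and read on oligonucleotide arrays with 49395 probe sets. The authors' deposited values are 1 linear intensity per probe set and array. RMA is named in the submitters' processing notes, and its settings, background step and scaling are not given in the sources used here. The values were taken to log2 without rescaling. Array medians were 182.5 in line 1, 183.6 in line 2 and 185.5 in the control. Groups follow the genotype label.

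Probe sets were named by the platform annotation, checked by gene identifier against RefSeq (GRCh38.p14, 0 symbols changed). Of the probe sets 44988 had 1 symbol, 1832 several, 2473 none and 102 were array controls. Each gene was read by its brightest probe set and kept at a mean of at least log2 7.52. The two-sided limma test (version 3.58.1 under R 4.3.3, functions lmFit and eBayes, adjusted by Benjamini-Hochberg over all genes) had 1 residual degree of freedom and 6.96 after moderation. Most of these 6.96 degrees of freedom come from all genes and not from the gene tested. Each SE and p-value therefore rests largely on a spread shared over genes, and less on that gene's own difference between the lines. Nothing says the lines are repeated cultures, so this spread reflects no more than how far these 2 hairpin arrays differ, which may be technical. The size rule and limma were run on simulated arrays whose noise, the control's included, was drawn from the differences between the 2 lines. That run takes as given that the control varies like the lines, so it cannot test this. Tables and figures used Python 3.11.15, pandas 2.3.3 and matplotlib 3.10.9. Alternatives were the mean of all probe sets, other filters, scalings and fold limits, a background subtraction, an intensity trend and single lines. The fit over all probe sets was added after seeing the data.

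The members and lists were chosen with earlier results of these data known. The rule for names took every member called by limma or by size, and in each role the 2 with the largest mean difference. Others are given by their differences, and dimmer probe sets were singled out after their values were seen.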

Additional observations from a re-analysis of the deposited data

Results flagged for a closer look

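NECTIN3 and CLDN3 lay above control in line 1 and below it in line 2, by at least 0.1 in log2 in each line. The log2 difference of line 1 minus line 2 was 0.433 for NECTIN3 and 0.270 for CLDN3. Neither difference was tested, since each line is a single array.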

How the results depend on the processing

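PARD6B and PERP kept their direction and an adjusted p under 0.05 in limma under all 7 alternatives, and PATJ under the 5 in which it passed the filter. CLDN1, CLDN12, CDH1 and DSP lost the call only with the mean of all probe sets (adjusted p 0.12, 0.079, 0.14 and 0.26), and PKP2 then turned to 0.074. That setting gave 2 higher genes (PARD6B and PKP4) in place of 6 and 0 higher by size in place of 1. It averages probe sets that differ. CLDN4 passed under 6 of the 7, all but the background subtraction. Cyclic loess and quantile scaling each gave 4 lower genes in place of 2, adding CLDN4 and JUP; the cause was not tested. By size 3 genes were higher at 1.3-fold (PARD6B, CLDN1 and DSP) and 0 at 2-fold, and single lines gave 1 to 2, the second being CLDN1 in line 2. Among probe sets 7 were higher at 1.3-fold and 0 at 2-fold, and single lines gave 4 to 5. Apart from genes in single lines, shares over all genes or probe sets are not given for the alternatives. Without them the counts do not show whether the junction genes or all genes changed with the setting. The median difference moved to 0.0087 with the mean of all probe sets, -0.0028 with the stricter filter and -0.072 with quantile scaling in line 1. In line 2 it moved to -0.055 with the mean, -0.048 with no filter, -0.050 with cyclic loess and -0.077 with quantile scaling. OCC-1 stayed between -1.46 and -1.41. limma could not be fitted with 1 line left out. No paired analysis was possible because the control has 1 array. Background left in the intensities makes fold differences smaller.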
